A study of Mus musculus with 4 samples.

Results

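The day 7 comparison set 1 array of citalopram-treated cells against 1 array of untreated cells, out of the 4 arrays of the series. Both arrays held RNA of MC3T3-E1, a pre-osteoblast line from the calvaria of C57BL/6 mice, which deposits collagen and can mature into bone-forming osteoblasts. The control cells grew in proliferation medium, and the treated cells in the same medium with citalopram, a selective serotonin reuptake inhibitor (SSRI), at 0.0001 mol per litre (100 µM), for 7 days. The other 2 arrays held the same arms at day 3 and are used here only to set day 3 values beside those of day 7. The series asked how citalopram bears on bone formation by these cells.

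Per the labels, 50000 cells were seeded per well, 3 wells an arm, in medium with 1% serum and no named inducer of mineralisation, and 250 ng of RNA was labelled. The labels do not say whether an array held 1 well or a pool of 3, nor whether both days came from 1 culture experiment. The comparison is the deposited log2 value with citalopram minus that of control, so a difference of 1 is a 2-fold change and 0.58 a 1.5-fold change. It was described over 19938 genes named by the platform annotation, each through 1 array feature. With 1 array a side, no difference below has a replicate check, no p-value is given, and the number of arrays limits the precision. "Higher" and "lower" describe these 2 arrays.

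Markers of the osteoblast lineage were checked first. Of 13 osteoblast lineage markers, 9 were measured and 8 passed the floor, a brightness limit explained below. Sparc, the bone matrix protein osteonectin, read 14.05 in control and 14.07 with citalopram, and Col1a1, a chain of type I collagen, read 12.59 and 12.64. Alpl, the alkaline phosphatase of mineralising cells, lay near the floor at 6.09 and 5.93, and Ibsp, bone sialoprotein, lay below it at 5.44 and 5.35. Runx2, Spp1, Bglap and Bglap2 were not analysed here.

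Few genes differed strongly, and those lower with citalopram outnumbered those higher. Genes were counted only above a brightness floor, reached on the brighter of the 2 day 7 arrays and set at that array's 40th percentile over genes (5.99 in control, 5.95 with citalopram). This left 12167 genes, whose median difference was 0.01 with a standard deviation (SD) across genes of 0.21. A difference of 1.5-fold or more upward was read for 68 of them (0.559%), and one downward for 115 (0.945%). At 2-fold, 6 were higher (0.0493%) and 4 lower (0.0329%). Lower genes made up 62.8% of the 183 past 1.5-fold, and 74.0% of 204 when the 4 arrays were forced to 1 distribution by quantile normalization. The genes nearest the 1.5-fold limit lay at 0.59 and -0.59 inside it and at 0.58 and -0.58 outside it. Over all 19938 genes, 55% were lower by any amount at day 7 and 40.6% at day 3. Among the 12167 genes above the floor, 48.7% were lower at day 7 and 42.0% at day 3. List members are read against these shares.

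**Figure D1:**
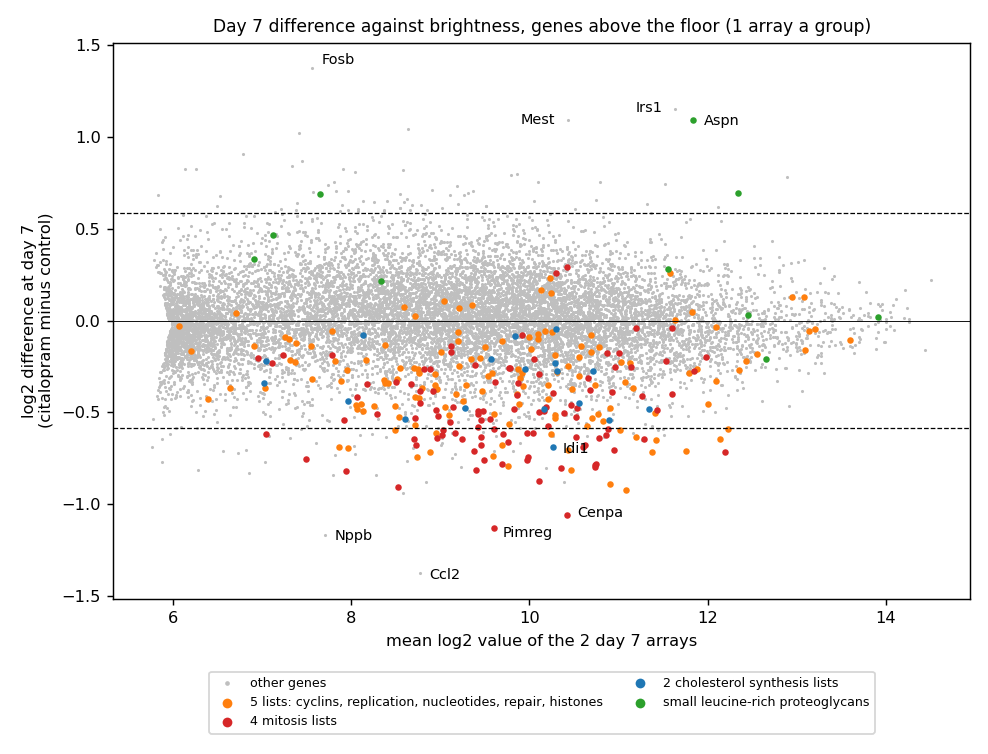
Each point is 1 of the 12167 genes above the floor, with the mean of its 2 day 7 log2 values on the x axis and its log2 difference, citalopram minus control, on the y axis; dashed lines mark 1.5-fold. The mitosis lists (red) and the other cell cycle lists (orange) lie mostly below 0 at every brightness, and Fosb (1.38) and Ccl2 (-1.38) are the extremes.

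The lower genes were to a large part cell cycle genes. Of the 115 genes at least 1.5-fold lower, 61 belonged to 9 lists of cell cycle genes, which hold 2.03% of the genes above the floor. None of the 68 higher genes did, a count of 0. The lists were chosen with earlier results of these data known, so these counts are a description and not a test. The day 3 arrays, which share no array with day 7, mostly leaned the same way for the lower and the higher genes. Of the 115 lower genes, 91 (79.1%) were also lower at day 3, where 42.0% of genes above the floor were lower. Of the 68 higher genes, 49 (72.1%) were also higher at day 3, against 58.0% of genes above the floor.

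Among the 20 genes with the highest differences, the leading one was Fosb, whose protein pairs with Jun proteins to form AP-1. At day 3 it read 7.13 without and 8.05 with the drug, and at day 7 6.88 and 8.25, so the citalopram array was the brighter at both days. Irs1 encodes insulin receptor substrate 1, the adaptor that carries the signal of the insulin and IGF receptors. It read 10.84 and 11.50 at day 3 and 11.06 and 12.21 at day 7, and its 2 features gave day 7 differences of 0.99 and 1.15. Aspn encodes asporin, a small proteoglycan of the collagen matrix. It read 12.12 and 12.19 at day 3, then 11.29 and 12.38 at day 7, so that the control array at day 7 stood apart from the other 3. Mest, an imprinted gene expressed from the paternal copy, showed the same arrangement, with 10.49 and 10.76 at day 3 and 9.89 and 10.97 at day 7. Rtl3, a gene derived from a retrotransposon, read 8.12 in control and 9.16 with citalopram at day 7.

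The other named higher genes spanned receptors, matrix signals, detoxifying enzymes and stress regulators. Ptgfr, the receptor of prostaglandin F, read 7.02 and 7.89 (difference 0.87), and Gdf6, a ligand of the BMP family, read 5.72 and 6.55 (0.83), its control value being below the floor. Cacna1g, a T-type calcium channel, read 9.72 and 10.47 (0.75), a difference like that at day 3 (0.77). Enzymes that detoxify carbonyls and electrophiles were among them: Cbr3, a carbonyl reductase, differed by 0.82 and Gstm1, a glutathione transferase, by 0.75. So were the oxidative stress gene Osgin1 (0.75) and Nupr1, a small stress-induced nuclear protein (0.74). Prkaa2, a catalytic subunit of the energy sensor AMP-activated kinase, differed by 0.74, and its day 3 value was -0.10. The LIM-domain gene Lmcd1 (0.80), the teneurin gene Tenm4 (0.79), the zinc finger gene Zfp521 (0.73) and the neurodevelopmental gene Auts2 (0.83) completed the protein-coding genes of known family, beside Thoc2l (0.81). The 2 features of Tenm4 gave 0.54 and 0.79.

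Of the 20 genes with the lowest differences, 10 were members of the cell cycle lists. The lowest gene was Ccl2, the chemokine that draws monocytes, with day 3 values of 8.53 (control) and 9.04 (citalopram) and day 7 values of 9.47 and 8.09. Control was thus the brighter array at day 7 and the dimmer at day 3. Nppb, which encodes B-type natriuretic peptide, read 8.83 and 8.56 at day 3 and 8.29 and 7.13 at day 7. Pimreg, a regulator of the metaphase to anaphase step, read 10.17 and 9.04 at day 7, 2.19-fold lower with citalopram. Cenpa, the histone variant that marks centromeres, read 10.95 and 9.89, which was 2.08-fold lower. Outside cell division, Cp, the copper-carrying ferroxidase ceruloplasmin, read 9.28 and 8.40, and Nt5dc2, of a nucleotidase-like family, read 10.83 and 9.95. Yipf2, a Golgi membrane protein, differed by -0.83, Efcab11, an EF-hand protein, by -0.84 and D17H6S56E-5 by -0.94. Plscr2 (-0.80) and Klk1b11 (-0.81) belong to families with near-identical members, so their single values are uncertain, and Klk1b11 with citalopram lay below the floor.

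**Figure D2:**
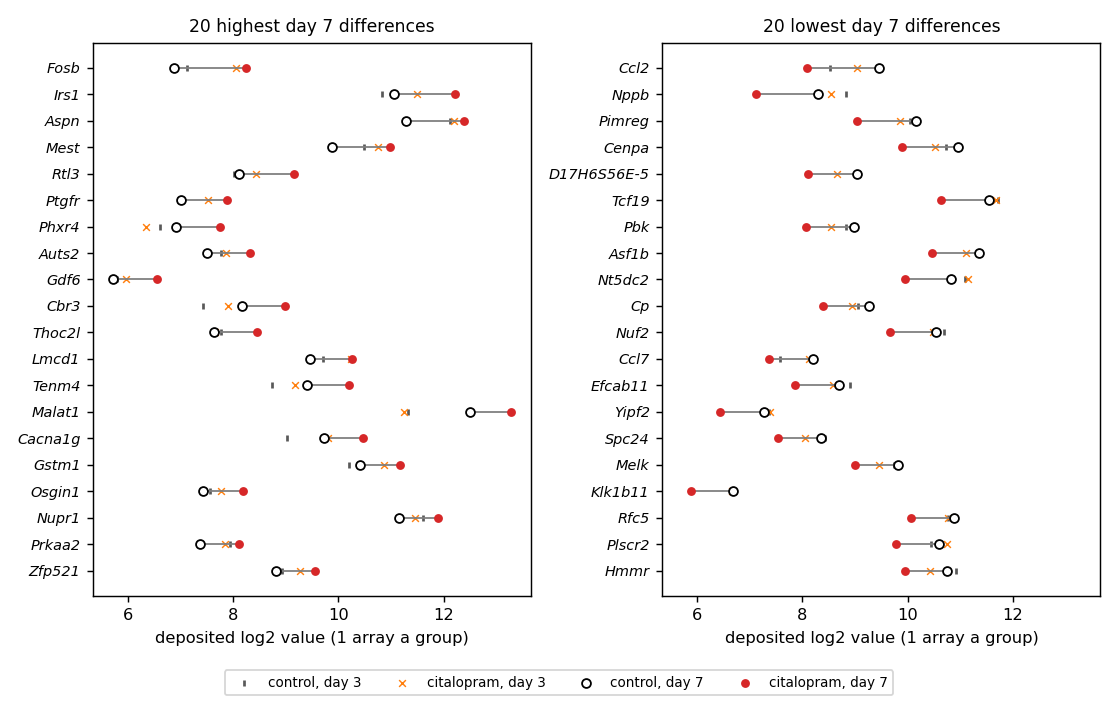
The 20 genes with the highest (left) and the 20 with the lowest (right) day 7 difference are drawn with their deposited log2 value on each of the 4 arrays: open circles for control and red circles for citalopram at day 7, bars and crosses for the same arms at day 3. For Aspn and Mest the control array at day 7 is the one that stands low, and for Ccl2 the citalopram array at day 7 lies below both day 3 arrays.

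Division needs 2 programmes of transcription that follow each other. Genes for replication are switched on by E2F factors as cells enter S phase, and genes for the spindle, the kinetochore and cytokinesis are switched on later by the DREAM and MuvB complexes with B-MYB and FOXM1, largely through CCAAT boxes and a CHR element in their promoters. Pre-osteoblasts divide before they mature, so in a culture the level of these transcripts reflects both the share of cells in cycle and the level in each; here fewer cycling cells and less RNA per cell cannot be told apart.

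The genes of mitosis were lower with citalopram nearly without exception. All 17 measured mitotic kinase and spindle checkpoint genes were lower at day 7, 9 of them at least 1.5-fold, with a median of -0.59. Bub1, a checkpoint kinase that sits on unattached kinetochores, read 11.13 in control and 10.33 with citalopram. Aurka, the kinase of the spindle poles, read 10.35 and 9.59, and Aurkb, the kinase of the chromosomal passenger complex, read 11.30 and 10.59. Pbk (-0.91) and Melk (-0.82), both mitotic kinases, differed most, and Mad2l1, the brightest member and a core checkpoint protein, read 12.55 and 11.83. Plk1, which drives entry into mitosis, differed by -0.59.

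All 33 measured centromere and kinetochore genes were lower as well, 12 of them at least 1.5-fold (median -0.46). After Cenpa came 2 subunits of the NDC80 complex, which holds microtubule ends: Nuf2 read 10.54 and 9.67, and Spc24 read 8.35 and 7.53. Ska3, which follows shortening microtubules, differed by -0.76, Cenpw by -0.75 and Cenpi by -0.65. The 34 measured kinesins and genes of spindle assembly and cytokinesis were all lower, 17 at least 1.5-fold (median -0.59). Hmmr, a spindle assembly factor, read 10.76 and 9.95, Racgap1, of the central spindle, differed by -0.79 and Nusap1, a microtubule bundler, by -0.78. The kinesins Kif2c (-0.78) and Kif11 (-0.64) lay among them. Of 20 condensin, cohesin and topoisomerase II genes, 18 were lower (median -0.39, 2 at least 1.5-fold), led by Cdca5, the cohesion protein sororin (-0.71), and the condensin subunit Ncaph (-0.64). Top2b (0.29) and Stag2 (0.26) were the 2 higher members, and both also act outside division. The 4 mitosis lists together held 104 genes.

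To show what the promoters of these members hold, RefSeq's GRCm38.p6 promoters were searched on both strands. Only the first start listed for each gene was used, with the 250 bases before it, so other starts were not searched. The motifs were CCAAT, the CCAAT box, and the core of the CHR element (TTTGAA), which can share at most 1 base. A promoter was found for 86 of the 104 mitosis members. The CCAAT box was present in 54 of them (62.8%), against 36.4% of 9714 genes above the floor and 34.5% of 27025 genes of all kinds. TTTGAA was present in 28 (32.6%), against 10.8% of genes above the floor and 16.3% of genes of all kinds. Both motifs stood in 21 (24.4%), against 4.15% and 5.73%. By list, TTTGAA stood in 2 of 13 promoters of kinase and checkpoint genes and 5 of 29 of centromere and kinetochore genes. The shares were larger for the kinesin list (13 of 28) and the condensin list (8 of 16). The small leucine-rich proteoglycans, mostly higher at day 7, held it in 5 of 11. Mitosis members with and without a motif did not separate in size. Their median difference was -0.52 with and -0.51 without a CCAAT box, and -0.52 with and -0.51 without TTTGAA. The 120 bases before the start are printed for 5 members named above that hold a motif there, 5′ to 3′ along the gene. Capitals mark the letters of either motif, or their reverse complement where the motif lies on the opposite strand. They lie at chr5:30666766-30666885 on the plus strand for Cenpa and, on the minus strand, at chr11:40733438-40733557 for Hmmr, chr2:127831860-127831979 for Bub1, chr4:117178773-117178892 for Kif2c and chr14:57826164-57826283 for Ska3.
Cenpa: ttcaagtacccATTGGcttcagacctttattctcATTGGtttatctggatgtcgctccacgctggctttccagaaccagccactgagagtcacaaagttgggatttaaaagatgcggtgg
Hmmr: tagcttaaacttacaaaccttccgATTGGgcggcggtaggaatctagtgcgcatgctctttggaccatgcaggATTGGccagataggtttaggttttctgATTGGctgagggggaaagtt
Bub1: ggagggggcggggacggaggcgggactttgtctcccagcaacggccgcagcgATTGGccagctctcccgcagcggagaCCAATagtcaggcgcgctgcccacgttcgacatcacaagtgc
Kif2c: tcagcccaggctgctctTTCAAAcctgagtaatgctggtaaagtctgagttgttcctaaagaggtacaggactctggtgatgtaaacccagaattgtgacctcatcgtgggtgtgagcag
Ska3: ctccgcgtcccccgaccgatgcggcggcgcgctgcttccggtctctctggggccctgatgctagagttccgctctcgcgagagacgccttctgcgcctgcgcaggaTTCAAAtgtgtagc

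In these stretches Hmmr held 3 CCAAT boxes, beginning 96, 47 and 20 bases before the start, Cenpa 2 (109 and 86) and Bub1 2 (68 and 42), each counted to the motif's outermost base. Kif2c and Ska3 held TTTGAA, at 103 and 14 bases, and no CCAAT box in this window. A match of letters is a description and not evidence of binding.

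Cyclins and their kinases were mostly lower. Of 28 measured members of the cyclin, CDK and regulator list, 22 were lower (median -0.41), 6 of them at least 1.5-fold. These 6 act mainly in G2 and mitosis: Ccnf (-0.79), Ccnb2 (-0.72), the phosphatase Cdc25c (-0.69), Cdk1 (-0.64), the transcription factor Foxm1 (-0.62) and Ccna2 (-0.59). Cdk1, the kinase that triggers mitosis, read 12.28 and 12.03 at day 3 and 12.46 and 11.81 at day 7. Not every member was lower: Ccnd1, a cyclin of early G1, read 13.02 in control and 13.15 with citalopram (0.13), Ccnd2 differed by 0.13 and Cdk6 by 0.26. Ccne1, which starts S phase, differed by -0.57 and E2f1 by -0.40, whereas Rb1 (0.17) and Rbl2 (0.08), the pocket proteins that hold cells in G1, were slightly higher. Mki67, the proliferation marker, read 11.80 and 11.40 (-0.40).

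Replication genes were lower to a smaller extent. Of 53 measured genes of replication origins and forks, 49 were lower (median -0.32), 8 of them at least 1.5-fold. Tcf19, a transcription factor gene of the G1 to S transition, read 11.55 in control and 10.62 with citalopram, and Asf1b, the chaperone that hands histones to new chromatin, read 11.35 and 10.46. Rfc5 (-0.81), of the clamp loader, Chaf1b (-0.71), of the chromatin assembly factor, and Gins2 (-0.68), of the replicative helicase, followed. Among these 5, only Asf1b had a day 3 difference below -0.05. Pcna, the sliding clamp and the brightest member, read 13.23 and 13.19, a difference of -0.04. The 12 genes of nucleotide supply were all lower (median -0.21), Tk1, thymidine kinase, by -0.74, Rrm2, the cell cycle-bound subunit of ribonucleotide reductase, by -0.63 and Tyms, thymidylate synthase, by -0.55, while the housekeeping purine and pyrimidine enzymes Cad and Umps differed by -0.07 and -0.06. In the recombination, Fanconi and mismatch repair list 22 of 25 were lower (median -0.32), with Parpbp at -0.71, Fancb at -0.69 and Brca2 at 0.07. At least 1 of 3 forms of the E2F site (TTTCCCGC, TTTGGCGC or TTTCGCGC) stood in 10 of 44 promoters of the origin and fork list (22.7%), against 3.15% of genes above the floor. The other lists of this paragraph held it less often, with 0 of 12 for nucleotide supply and 3 of 22 for recombination and repair. It also stood in 3 of 21 promoters of the interferon list (14.3%), so it was not particular to replication genes.

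Histone genes that are expressed with replication were lower in 26 of 27 cases, with a median of -0.26 at day 7 and -0.31 at day 3. H2ac4 was the brightest of the strongly lower ones, with 12.11 in control and 11.41 with citalopram, and H2ac1 differed by -0.74. Many histone genes are near-identical copies, so single values are uncertain. Seen over both days, 212 of all 249 cell cycle members were lower at day 3 (median -0.20) and 233 at day 7 (median -0.37). Of the 249, 203 were lower at both days, and 196 had a lower difference at day 7 than at day 3. The shares of all genes for these last counts were not computed. The median difference over all genes also fell, from 0.03 at day 3 to -0.02 at day 7. Set against day 3, the median cell cycle gene read -0.01 on the day 7 control array and -0.22 on the day 7 citalopram array. For all genes above the floor these values were -0.01 and -0.03. These are the arrays compared above, so the values restate the comparison.

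**Figure D3:**
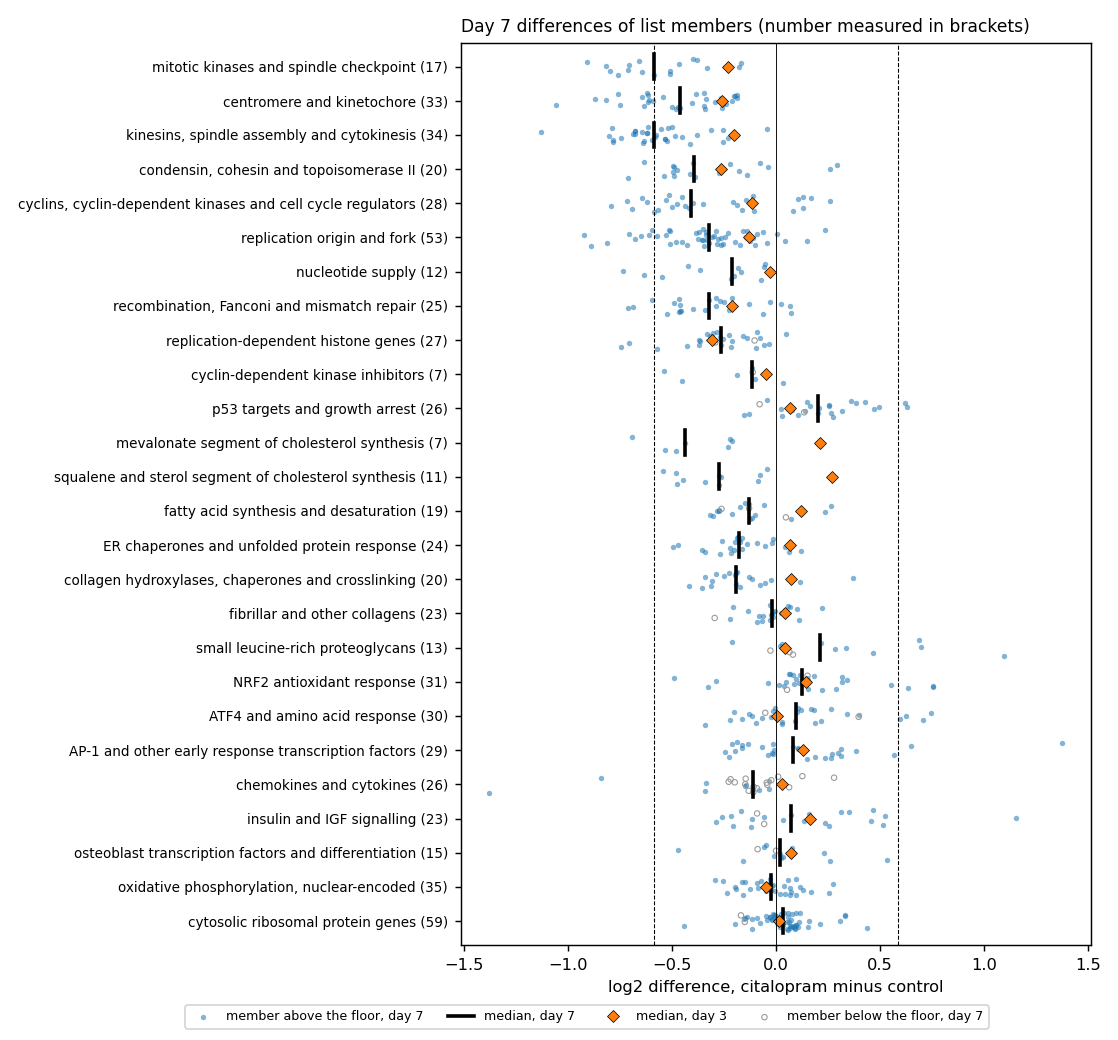
Every measured member of 26 gene lists is placed by its log2 difference, citalopram minus control, at day 7 (filled points above the floor, open points below it), with the list's median at day 7 (black bar) and at day 3 (orange diamond); dashed lines mark 1.5-fold. The 9 cell cycle lists at the top have both medians below 0, and the 2 cholesterol lists have medians of opposite sign at the 2 days.

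Genes that stop the cycle gave a divided picture. Cdkn1b, the CDK inhibitor p27 and the brightest of its list, read 10.73 and 10.76, with 2 features at 0.03 and 0.30. Of 7 inhibitor genes measured 6 were lower, led by Cdkn3 (-0.54) and Cdkn2d (-0.45), which are themselves expressed in dividing cells. Cdkn1a and Trp53 were not analysed here. Targets of p53 and growth arrest genes were higher in 22 of 26, with a median of 0.20 at day 7 and 0.07 at day 3. Gadd45a, a growth arrest and DNA damage gene, read 8.47 in control and 9.09 with citalopram, and Trp53inp1, a p53-induced nuclear protein, read 11.81 and 12.43; these 2 passed 1.5-fold. Sesn2 (0.49), a stress-induced inhibitor of mTORC1, Zmat3 (0.47) and Btg2 (0.43), an antiproliferative gene, followed, and Mdm2, the p53-induced ubiquitin ligase, read 12.44 and 12.69. Pmaip1 and Bbc3, which promote apoptosis, differed by -0.08, below the floor, and 0.16.

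Cholesterol synthesis was the second coherent lower group, and it had the opposite sign at day 3. Cells make cholesterol from acetyl-CoA through mevalonate, farnesyl diphosphate and squalene, and SREBP2 switches the whole chain on when membrane sterol is scarce. All 7 measured genes of the mevalonate segment were lower at day 7 (median -0.44) and all 7 higher at day 3 (median 0.21). Idi1, isopentenyl diphosphate isomerase, had day 3 values of 10.16 (control) and 10.37 (citalopram) and day 7 values of 10.61 and 9.92. Mvk, mevalonate kinase, read 9.04 and 9.22, then 8.87 and 8.34. Fdps, farnesyl diphosphate synthase, read 10.04 and 10.34, then 10.41 and 9.93. In all 3 genes the day 7 citalopram array was the lowest of the 4. Hmgcs1 read 10.40 and 10.17 at day 7.

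The 11 measured genes of the squalene and sterol segment were all lower at day 7 (median -0.27), and 10 were higher at day 3 (median 0.27). Fdft1, squalene synthase, read 11.16 and 10.62 at day 7, with 2 features at -0.54 and -0.46. Msmo1 and Lss, which act on the sterol ring, both differed by -0.48, Nsdhl by -0.45 and Sqle, squalene epoxidase, by -0.27. Hsd17b7 had the highest day 3 difference (0.66) and was at -0.26 at day 7. Only Idi1 of the 18 genes passed 1.5-fold, so the group is described by its shared sign. From day 3 to day 7 the median of the mevalonate genes differed by 0.21 between the control arrays and by -0.41 between the citalopram arrays.

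**Figure D4:**
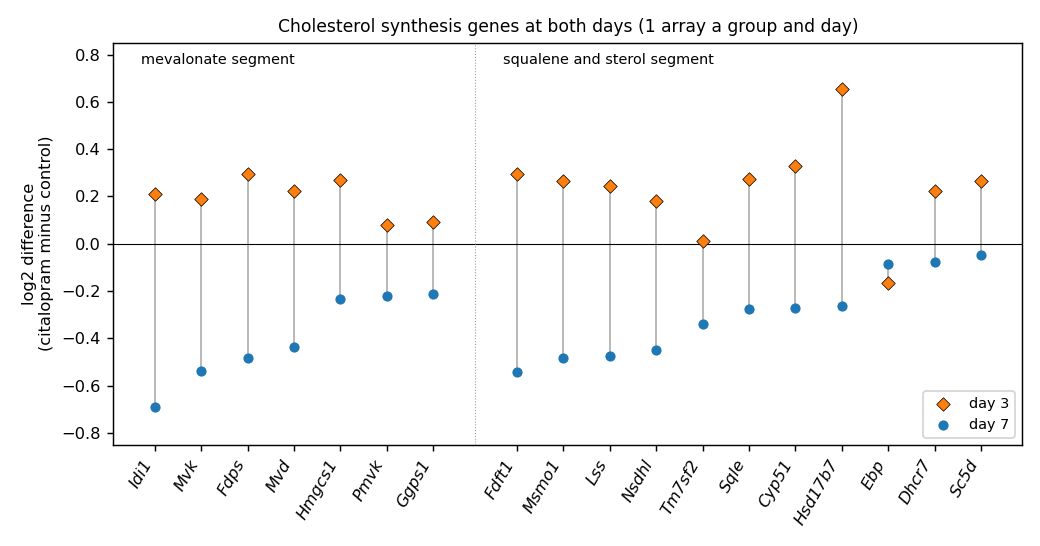
For each of the 18 measured cholesterol synthesis genes, the log2 difference, citalopram minus control, is drawn at day 3 (orange diamonds) and day 7 (blue circles), with the mevalonate genes on the left. All 18 lie below 0 at day 7 and 17 above 0 at day 3; Ebp (-0.17 and -0.09) is below 0 at both.

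Their promoters are shown because nearly all carry the CCAAT box, where SREBP acts together with the factor NF-Y. It was present in 14 of 15 promoters found (93.3%), against 36.4% of genes above the floor. The core of the sterol regulatory element was searched as TCACNCCAC, on both strands, which can share at most 1 base with a CCAAT box, and stood in 1 of the 15 (6.67%, against 0.896%), but this spelling fits only some known elements. The 120 bases before the start are given for 3 of the members with large differences, with CCAAT or ATTGG in capitals, at chr13:8885486-8885605 (plus strand) for Idi1, chr5:114444149-114444268 (plus strand) for Mvk and chr8:64733579-64733698 (minus strand) for Msmo1.
Idi1: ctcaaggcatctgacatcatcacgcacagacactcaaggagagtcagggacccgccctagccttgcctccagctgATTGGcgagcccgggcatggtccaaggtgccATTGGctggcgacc
Mvk: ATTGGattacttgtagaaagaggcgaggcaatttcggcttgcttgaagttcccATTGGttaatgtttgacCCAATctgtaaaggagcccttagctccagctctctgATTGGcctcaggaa
Msmo1: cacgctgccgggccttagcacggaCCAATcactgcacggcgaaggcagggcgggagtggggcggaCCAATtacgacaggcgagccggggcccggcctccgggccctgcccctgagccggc

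Mvk held 4 CCAAT boxes in this window, at 120, 67, 50 and 14 bases before its start. Idi1 held 2, at 45 and 14, and Msmo1 2, at 96 and 55.

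The regulators around cholesterol synthesis differed less. In the list of SREBP control, uptake and efflux, 9 of 12 were lower with a median of -0.08. Srebf2, the gene of SREBP2, read 9.85 and 10.32 at day 3 and 10.18 and 10.10 at day 7. Stard4, a sterol carrier, differed by -0.42 and Insig1, which retains SREBP in the endoplasmic reticulum (ER) when sterol is plentiful, by -0.34, whereas Abca1, the cholesterol exporter, was higher by 0.28 from a control value below the floor. Fatty acid synthesis genes were lower in 15 of 19 (median -0.13; 0.12 at day 3), with Acly, which makes cytosolic acetyl-CoA, at -0.32 and Fasn, fatty acid synthase, at -0.30. Lysosomal genes were lower in 18 of 27 (median -0.07; 0.10 at day 3) and genes of the vacuolar proton pump in 14 of 17 (median -0.07; 0.15 at day 3). In the pump list Atp6v0d2 read 5.68 in control, below the floor, and 6.13 with citalopram. Sqstm1, the autophagy receptor p62, differed by 0.28, and the autophagy list had a median of 0.00.

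Bone matrix genes were split between the collagens, their enzymes and the small proteoglycans. Collagen is made in the ER, where hydroxylases and chaperones prepare it, and is crosslinked by lysyl oxidases outside the cell, while small leucine-rich proteoglycans coat the fibrils and set their width. Of 23 collagen genes 15 were lower, with a median of -0.02 and none past 1.5-fold (0 of 22 above the floor). Col1a2 read 12.47 and 12.39, Col12a1, the brightest, 12.64 and 12.51, and Col3a1 9.61 and 9.83. The enzymes that process collagen were lower in 18 of 20 (median -0.19; 0.07 at day 3): Loxl1, a lysyl oxidase, by -0.42, Bmp1, the procollagen proteinase, by -0.35, Colgalt1 by -0.34, Plod3 by -0.31 and P4ha1 by -0.31. Serpinh1, the collagen chaperone HSP47, read 11.45 and 11.26. P3h2, a prolyl hydroxylase, went the other way (0.37). Tnc, the matrix glycoprotein tenascin C, differed by -0.60 and was the only one of 28 adhesive glycoprotein genes past 1.5-fold, while Mfap5 (0.49) and Fbn2 (0.47), of the microfibrils, were higher.

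The small leucine-rich proteoglycans were higher in 11 of 13, with a median of 0.21 at day 7 and 0.04 at day 3; 10 of the 13 passed the floor, and 3 were at least 1.5-fold higher. Beside Aspn these were Ogn, osteoglycin, with 12.00 in control and 12.69 with citalopram, and Lum, lumican, with 7.31 in control and a difference of 0.69. Omd, osteomodulin, read 6.89 and 7.36. Bgn, biglycan, the brightest, read 13.90 and 13.92, and Dcn, decorin, was lower, with 12.76 and 12.55. Aspn, Lum and Omd had day 3 differences of 0.07, -0.04 and -0.14, so their higher values stood at day 7. For Aspn and Lum the control array at day 7 was the lowest of the 4: Lum read 8.40 and 8.36 at day 3.

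Several of these genes are neighbours. Genes picked around each place were ordered by start coordinate in the RefSeq table, and genes between them were not looked for. In this order Ecm2, Aspn, Omd and Ogn follow each other, and their day 7 differences were 0.34, 1.09, 0.47 and 0.69. Of the other picked genes, Cenpp, a kinetochore gene listed just before them, gave -0.20. Nol8, a nucleolar protein, and Iars, a tRNA synthetase, are listed after them and gave 0.42 and 0.09. Dcn (-0.21) and Lum (0.69) follow each other in the same way at another place and differed in sign. The neighbouring genes Tmem176b and Tmem176a, which encode related membrane proteins, were both lower, by -0.77 and -0.72.

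**Figure D5:**
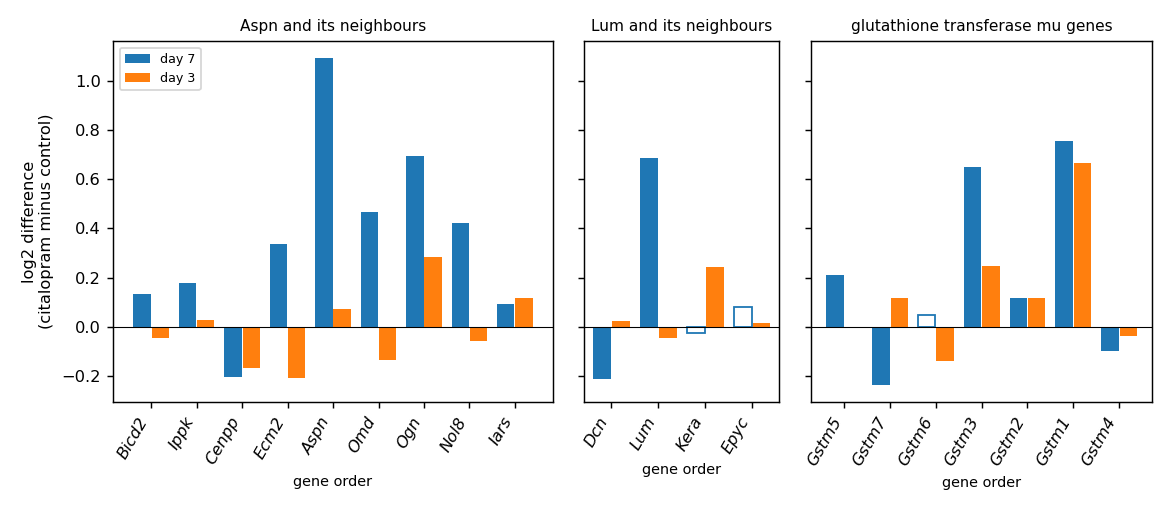
Bars give the log2 difference, citalopram minus control, at day 7 (blue, outlined where the gene is below the floor) and day 3 (orange). Picked genes around Aspn, around Lum and in the glutathione transferase mu cluster are ordered by start coordinate. The Ecm2 to Nol8 stretch is higher at day 7 (0.34 to 1.09), and in the mu cluster Gstm1 (0.75) and Gstm3 (0.65) stand above the others.

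Genes of ER protein folding were lower in 21 of 24 (median -0.18; 0.07 at day 3), with none past 1.5-fold (0 of 24). Sdf2l1, a component of the ER chaperone network, differed by -0.50, Creld2 by -0.36, Pdia6, a disulfide isomerase, by -0.34 and Calr, calreticulin, by -0.27. Pdia4 differed by -0.47 through its brighter feature and by -0.09 through the other. Hspa5, the master chaperone BiP, was not among them and read 12.74 and 12.78.

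Several regulators of stress responses were higher. The ATF4 pathway restores amino acid supply and prepares cells for prolonged stress, and 4 of the 28 members bright enough to count passed 1.5-fold upward, Nupr1, Atf3, Atf5 and Trib3. Atf3 read 7.62 in control and 8.32 with citalopram at day 7, against a day 3 difference of 0.29. The 4 values of Atf5 were 9.21 and 9.18 at day 3, then 9.20 and 9.83, and those of Trib3 8.03 and 7.78, then 8.08 and 8.67. All 4 encode regulators rather than amino acid enzymes. Ddit3, the transcription factor CHOP, differed by 0.40 and Atf4 itself by 0.18. Enzymes of the list lay below 0 in several cases, with Aldh1l2 at -0.34, Phgdh at -0.22 and Asns, asparagine synthetase and the brightest, at -0.13. Its amino acid carriers went both ways, with Slc7a3 at 0.40, below the floor, and Slc7a5 at -0.10. The whole list had a median of 0.09, with 18 of 30 higher.

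NRF2 is held by KEAP1 until oxidants or electrophiles free it to switch on genes for glutathione and detoxification. Of 31 measured targets and regulators 27 were higher at day 7, with a median of 0.13, and 25 at day 3, with a median of 0.15. Gstm1 read 10.21 and 10.87 at day 3 and 10.41 and 11.16 at day 7. Hmox1, haem oxygenase, read 10.58 and 11.61, then 11.01 and 11.64, so the citalopram arrays were alike while the 2 control arrays differed by 0.43. Gclc, the catalytic subunit of glutathione synthesis, read 11.11 and 11.57, then 11.53 and 12.08, and Osgin1 7.56 and 7.78, then 7.43 and 8.18. Gstm1, Osgin1 and Hmox1 were the 3 members past 1.5-fold. Nfe2l2, the gene of NRF2, differed by 0.06 and Nqo1 by 0.34. The 4 lower members included Idh1 (-0.49), Gpx4 (-0.33) and Gpx1 (-0.29). Idh1 makes cytosolic NADPH and had the opposite sign at day 3 (0.74). In the glutathione transferase mu cluster, Gstm3 (0.65) was high beside Gstm1, Gstm2 was at 0.12, and Gstm7 and Gstm4 at -0.24 and -0.10. These genes are close in sequence, and cross-hybridisation between copies was not tested.

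Early response transcription factors gave 15 higher and 14 lower genes of 29, Fosb standing furthest from 0. Their median was 0.08 at day 7, 0.0009 under quantile normalization, and 0.13 at day 3. Klf4, a zinc finger factor, read 9.73 and 10.38 and was the other one past 1.5-fold. The orphan nuclear receptor gene Nr4a1 read 8.05 and 8.62 (0.57), Nr4a3 differed by 0.38 and Myc by 0.31. The partners and relatives of Fosb differed less: Fosl2 by 0.31, Fos by 0.30 and Jun by 0.11. Egr1 was at -0.20 and Dusp1 at -0.17.

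Irs1 stood out among 23 genes of insulin and IGF signalling, 13 of them higher (median 0.07; 0.16 at day 3), as the only one past 1.5-fold. Next were Igfbp6 (0.52), an IGF-binding protein, Irs2 (0.51), and the regulatory subunits of PI3 kinase, Pik3r3 (0.47) and Pik3r1 (0.46). Foxo3, a transcription factor restrained by insulin, differed by 0.35. The receptors Insr and Igf1r differed by 0.31 and 0.13, and Igf1 read 11.76 and 11.83. Akt1 and Akt2, the kinases downstream, were at -0.12 and -0.22.

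Chemokine genes were mostly too dim to read. Of 26 measured chemokine and cytokine genes 10 passed the floor, and of these Ccl2 and Ccl7 were at least 1.5-fold lower. Ccl7, a relative of Ccl2 and its neighbour, read 7.59 and 8.13 at day 3 and 8.21 and 7.37 at day 7, the same course as Ccl2. Ccl11, the next of the genes picked there by start coordinate, was at 0.02. Ccl9 and Cx3cl1 both differed by -0.34, and Csf1, the macrophage growth factor and the brightest member, read 12.02 and 11.98. Il6, Tnf and Il1b lay below the floor. The list as a whole was lower in 22 of 26 (median -0.11), with 16 members below the floor. Nfkbia, the NF-kB inhibitor and target, differed by -0.28 at day 7 and 0.33 at day 3, and Vcam1 by -0.10 and 0.65.

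In the interferon list 17 of 28 were lower (median -0.04), and its members went both ways. Rtp4, an interferon-induced chaperone, read 8.41 in control and 7.68 with citalopram, and Oasl2 read 8.30 and 7.77. Irf9, the DNA-binding subunit of the interferon-activated complex, differed by -0.54. Tap1, a peptide transporter of antigen presentation, read 9.84 and 10.34. Usp18 (-0.25), which restrains interferon signalling, had been higher at day 3 (0.80).

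Osteoblast differentiation genes differed little. Of 15 measured, 8 were higher, with a median of 0.02 that turned to -0.02 under quantile normalization, and none of the 13 above the floor passed 1.5-fold (0 of 13). Sp7, the gene of osterix, read 7.79 and 8.24 at day 3 and 7.71 and 7.79 at day 7. The homeobox gene Dlx6 read 6.36 and 6.90 (0.53), Dlx5 10.12 and 10.35, and Twist1 8.70 and 8.96, while Twist2 was lower, with 7.63 and 7.16. Among genes of mineral handling 10 of 13 were lower (median -0.08; 0.18 at day 3); Ank, the pyrophosphate exporter, was at -0.29, and Phospho1, a phosphatase of matrix vesicles, at 0.34. Mgp, matrix Gla protein, an inhibitor of mineralisation and the brightest, read 12.44 and 12.74.

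Factors by which osteoblasts steer osteoclasts were lower in 11 of 12 (median -0.10; all 12 higher at day 3, median 0.15). Tnfsf11, the RANK ligand, read 7.16 and 6.89, and Tnfrsf11b, its decoy osteoprotegerin, read 10.86 and 10.62, so both were lower by a like amount (-0.27 and -0.23).

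Signalling lists had medians close to 0 with a few strong members. In the Wnt list 19 of 35 were lower (median -0.04), yet Rspo2, which amplifies Wnt signals, read 8.29 and 8.95 (0.66, past 1.5-fold), Sfrp2, a secreted Wnt-binding protein, 11.49 and 12.03, and Axin2, a standard Wnt target, 6.73 and 6.99. In the BMP and TGF-beta list 22 of 40 were lower (median -0.01, with a changing sign under other scalings); beside Gdf6, Id4 (0.51) and Tgfbr2 (0.44) were higher and Tgfbi (-0.46) and Tgfb1 (-0.37) lower. In the list of PDGF, FGF and VEGF signalling 14 of 25 were lower (median -0.01) and none passed 1.5-fold. Pdgfra, a receptor of the platelet-derived growth factor system, read 8.73 and 9.17, Fgfr2 11.27 and 11.56 and Pdgfrb 11.81 and 12.09, while Pdgfb, a ligand, differed by -0.33 and Fgf2 by -0.31. Mest was the only one of 21 imprinted genes measured past 1.5-fold, the next being Plagl1 (0.29), and Ptgfr the only one of 17 prostaglandin genes, the next being Ptgfrn (0.31).

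The drug's own target lay below the floor. Slc6a4, the serotonin transporter, read 5.48 in control and 5.38 with citalopram. Of 27 genes of serotonin and monoamine handling 7 passed the floor, and 20 were lower by small amounts (median -0.08). Maoa, which breaks serotonin down, was the member with the largest difference, with 9.30 and 9.62, and S100a10, an annexin-binding protein that also binds serotonin receptors, was the brightest, at 13.72 on both arrays. Nppb likewise stood alone: of the 9 natriuretic peptide genes only it passed 1.5-fold, and its clearance receptor Npr3 differed by -0.31.

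Of the 68 higher genes 59 were protein-coding, as were all 115 lower ones. Of the 12167 genes above the floor, 11570 were protein-coding. The higher genes included 4 long non-coding RNAs, of 273 above the floor. Malat1, a nuclear long non-coding RNA, read 11.33 and 11.24 at day 3 and 12.50 and 13.28 at day 7. Phxr4, annotated as a long non-coding RNA, read 6.62 and 6.36, then 6.91 and 7.75. Of 300 microRNA genes 116 passed the floor, and 2 were at least 1.5-fold higher, Mir218-1 with 5.84, below the control floor, and 6.67 and Mir27a with 6.19 and 6.87. Mir125b-1 (0.57), Mir145a (0.52), Mir505 (0.46) and Mir186 (0.43) followed, all dim. The features read RNA from each locus, so a precursor, a host transcript and a mature microRNA cannot be told apart, and the values say nothing of mature levels. The main mature arms that 3 of these genes encode are printed with the seed, bases 2 to 8, in capitals, from RefSeq's GRCm38.p6, all on the plus strand: miR-218-5p at chr5:48223966-48223986, miR-27a-3p at chr8:84208727-84208747 and miR-125b-5p at chr9:41581940-41581961.
mmu-miR-218-5p: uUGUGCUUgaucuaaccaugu
mmu-miR-27a-3p: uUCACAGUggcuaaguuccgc
mmu-miR-125b-5p: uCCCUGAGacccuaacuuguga

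No 2 of the 3 seeds are the same. Small nucleolar and Cajal body RNAs were higher in 35 of 54 at day 7 (median 0.08) and lower in 47 of 54 at day 3 (median -0.24), with Snora33 (0.69), Snora75 (0.57) and Snora74a (0.55) the highest. Snord82, the brightest, read 13.28 and 13.51. The day 7 array read higher than the day 3 array for these RNAs, by a median of 0.71 in control and 1.07 with citalopram. Gm7265 (1.02), a symbol outside the naming rule, completes the genes past 2-fold, and 1700054O19Rik (0.91) was the next such symbol.

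Large housekeeping lists stayed near 0 and give a sense of scale. The 59 cytosolic ribosomal protein genes had a median of 0.04, with 38 higher and none past 1.5-fold (0 of 57 above the floor), Rpl21, the brightest, reading 14.25 and 14.26. The 35 nuclear-encoded genes of oxidative phosphorylation had a median of -0.03, with 21 lower, and the brightest, Atp5b, read 13.62 and 13.57. Heat shock chaperones had a median of 0.05, with Hspa8, the brightest, at -0.01, metallothioneins and zinc transporters 0.11, glycolysis and hypoxia genes -0.03, and matrix proteases and inhibitors 0.01. In the actin, SRF and YAP list, with a median of 0.00, Cotl1, an actin-binding protein, was at -0.51 and Ccn2, a target of YAP, at -0.38. The genes above the floor were also cut by brightness into 4 equal bins. From dimmest to brightest, the median differences were -0.02, 0.04, 0.03 and -0.02, in no order. Counts past 1.5-fold did depend on brightness: 13, 32, 12 and 11 genes were higher in these bins, and 15, 33, 34 and 33 lower. The excess of lower genes thus lay mainly in the third and the brightest bin. Cell cycle members numbered 16, 64, 86 and 81.

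Markers of other cell types were mostly below the floor, which was passed by 1 of 7 endothelial, 2 of 10 adipocyte, 2 of 6 epithelial, 3 of 6 neural and glial, 3 of 10 macrophage and osteoclast, 4 of 10 chondrocyte and 4 of 9 myogenic markers. The log2 of the summed marker values can be set side by side only within a list. For endothelial markers it was 8.45 in control and 8.41 with citalopram. Macrophage and osteoclast markers had the largest shift, with 11.02 and 11.22. Myogenic markers gave 9.43 and 9.33, adipocyte 9.01 and 8.91, and chondrocyte 11.74 and 11.77. Epithelial markers gave 8.56 and 8.57, neural and glial 8.81 and 8.85, and osteoblast lineage markers 14.91 and 14.93. The defining macrophage genes Adgre1, Csf1r and Ptprc read 5.18 to 5.55, below the floor, and Lyz2, the lysozyme gene, differed by 0.47 with 9.07 on the citalopram array. Sox9, a regulator of cartilage, read 10.50 and 10.79, and Col2a1, cartilage collagen, 10.60 and 10.37. The part of other cell types in any difference above was not tested.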

How the data were processed

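RNA of 4 samples was measured on 1 whole-transcript array each. The deposited values are on a log2 scale, made by the authors with Partek (version unnamed), per the submitters' processing notes. How background, normalization and summarization were done is not given in the sources used, and the base of the logarithm was inferred from the range of the values. The platform annotation gave 1 symbol to 21789 of the 35556 features, several to 1621 and none to 12146. A gene was read through its feature of highest mean over the 4 arrays, which gave 19938 genes (999 with several features), 19856 of them matched to the RefSeq table of GRCm38.p6. Values were used as deposited. Medians over all features were 6.50 and 6.50 at day 3 and 6.60 and 6.66 at day 7 (control, then citalopram), and the day 7 arrays correlated with r = 0.994 across features, which are not independent replicates.

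With 1 array a group no test was possible. Differences, folds and counts were computed with Python 3.11.15, pandas 2.3.3, numpy 2.4.6 and statsmodels 0.14.6, and drawn with matplotlib 3.10.9. The scripts were tested on simulated data with planted changes past 2-fold only, scored by 2-fold counts and the median of the raised genes. That setting does not cover the 1.5-fold counts or small list medians. List medians and counts of higher and lower members cover all measured members, counts past a fold only those above the floor. The members and lists were chosen with earlier results of these data known. Named were the 20 highest and 20 lowest genes, leaving out provisional, microRNA and small RNA symbols, and in each list the 6 members of largest difference, the brightest and the pathway's defining genes. Named beyond this rule, after their values were seen, were Akt1, Akt2, Bbc3, Brca2, Cad, Ccl11, Ccnd1, Ccnd2, Ccne1, Cdk6, Cenpp, Dcn, Dusp1, E2f1, Ebp, Egr1, Fos, Gm7265, 1700054O19Rik, Gpx1, Gpx4, Gstm2, Gstm3, Gstm4, Gstm7, Hsd17b7, Iars, Igf1, Il1b, Il6, Jun, Mdm2, Mki67, Nol8, Pdgfrb, Phgdh, Plk1, Pmaip1, Rb1, Rbl2, Serpinh1, Slc7a3, Slc7a5, Stag2, Tmem176a, Tmem176b, Tnf, Top2b, Umps and Vcam1. The alternatives were quantile normalization, loess (span 0.3), median centring, the mean of a gene's features, its feature of smallest difference, no floor and a floor at the 60th percentile.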

Additional observations from a re-analysis of the deposited data

Results flagged for a closer look

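Among the 40 genes named for the highest and lowest day 7 differences, 4 had day 7 and day 3 differences, citalopram minus control, of opposite sign and at least 0.2 in size. The change from the day 3 to the day 7 difference was -1.8892 for Ccl2 (0.51 to -1.38), -1.3856 for its neighbour Ccl7 (0.55 to -0.84), -1.0903 for Plscr2 (0.29 to -0.80) and 1.0997 for the non-coding RNA gene Phxr4 (-0.26 to 0.84). The medians of both cholesterol lists also had opposite signs at the 2 days, again with both at least 0.2 in size: the change was -0.6486 for the mevalonate segment and -0.5416 for the squalene and sterol segment. Each rests on 1 array per arm and day, and the difference between the days was not tested.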

How the results depend on the processing

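The 4 counts of genes past 1.5-fold and 2-fold stayed within 1.5 times of the reported counts under all 7 alternatives. Quantile normalization gave the recombination, Fanconi and mismatch repair list a median of -0.422, and moved 7 of the 40 named genes by 0.1 or more. With the floor at the 60th percentile, the prostaglandin list reversed from -0.11 to 0.07074, and 8 list medians moved: chemokines and cytokines to -0.3384, osteoblast differentiation to 0.1304, Wnt signalling to 0.1939, imprinted genes to 0.1045, calcium channels to 0.2197, natriuretic peptides to -0.2291, serotonin handling to 0.1643 and macrophage markers to 0.3245. This floor leaves fewer members in each list. The list medians reported above cover all measured members, so this alternative also drops the dim ones. With only members above the 40th percentile floor, the prostaglandin median was 0.02, that of calcium channels 0.22 and that of serotonin handling -0.05. Of the 58 list medians, 47 kept their sign under quantile normalization, loess and centring, and the other 11 lie close to 0. Some of the 47 also came close to 0, such as that of the early response factors (0.0009 under quantile normalization). Named genes moved by the choice of feature were Irs1 (0.99 at its smallest) and Tenm4 (0.54).

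No paired analysis was possible because each group held 1 array and the labels give no replicate numbers. No difference can be set against the spread between cultures, and values near the floor have little order.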

Other observations

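Genes outside the lists made up a part of the lower genes: 54 of the 115 genes at least 1.5-fold lower were in none of the 9 cell cycle lists, and 48 were in none of the 58 lists. Of the 68 higher genes 45 were in no list. The 58 lists held 1140 of the 12167 genes above the floor, and with them 67 of the lower and 23 of the higher genes.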
